A study of Mus musculus with 20 samples.

Results

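Transcripts annotated as targets of nonsense-mediated decay (NMD) were measured by RNA sequencing in the hippocampus and the neocortex of mice that lack the microRNA miR-324 and of wild-type (WT) mice. They were chosen by annotation alone: of the 113580 transcripts whose identifiers matched the mouse annotation, the 6822 with the transcript type nonsense_mediated_decay were taken, which is 6.01%, and they belong to 4369 of 35580 genes. The rule itself uses no measured value. A gene had 1 such transcript in 2863 cases and 2 or more in 1506 cases, with at most 18 in 1 gene. The 4 groups of 5 samples each were compared: WT hippocampus, miR-324-null hippocampus, WT neocortex and miR-324-null neocortex. The mice were male, 13.5 months old and C57BL/6J by label, and the labels give no treatment. The null allele was a CRISPR/Cas9 deletion at the miR-324 locus, present in all tissues, in founders of mixed C57BL/6 and CBA/Ca background that were backcrossed to C57BL/6J, and heterozygous mice were then crossed to give the WT and null lines. The labels give 1 number per sample and do not say which hippocampus and neocortex came from the same mouse, so p-values measure the spread between these samples.

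NMD is a surveillance pathway that destroys messenger RNAs whose reading frame ends too early. Splicing leaves an exon junction complex just upstream of each junction, the first round of translation strips these complexes away, and a complex that remains downstream of the stop codon recruits the UPF and SMG proteins, which trigger decay. Many genes of splicing factors use this route on purpose: an exon with an in-frame stop (a poison exon) is spliced into their own messenger RNA, and its inclusion limits how much protein is made. In neurons such exons take part in the control of splicing factors, synaptic scaffolds and ion channels. The type nonsense_mediated_decay is a prediction from the position of the stop codon and not a measurement of decay, and the amount measured is what remained at the time of collection.

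The stop codon that gives a transcript this type is its defining sequence. The last 30 bases of the reading frame are shown 5′ to 3′ for 16 transcripts to which the results below refer, read on the coding strand from the GRCm38 genome through the spliced transcript, with the stop codon in capitals and its genomic position given. The first 3 lines are abundant transcripts whose stop lies in bases that a coding transcript of the same gene also holds in its exons, where the reading frame or the splicing downstream differs.
Ppia-201 (chr11:6418241-6418243, plus strand): caaagacagcagaaaactttcgagctcTGA
Mobp-204 (chr9:120173188-120173190, plus strand): aggagcaggtcaaccccaaggaagaagTGA
Atp2a2-203 (chr5:122457151-122457153, minus strand): actaactttagcgatatgttctggtctTGA
The next 3 lines are poison exons of SR protein genes, in which the stop lies in an exon that overlaps no exon of a coding transcript.
Srsf3-201 (chr17:29039485-29039487, plus strand): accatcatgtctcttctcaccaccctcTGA
Tra2a-202 (chr6:49252965-49252967, minus strand): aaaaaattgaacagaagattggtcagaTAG
Srsf9-205 (chr5:115328426-115328428, plus strand): cctgggttggagattacggattcacagTAG
The next 7 lines are transcripts that differed between hippocampus and neocortex.
Arpp19-202 (chr9:75056803-75056805, plus strand): tccctggttgctagcaagctggctggcTGA
Igfn1-202 (chr1:135956755-135956757, minus strand): gcctctcggactgtggccgatacaccgTGA
Grip2-204 (chr6:91772969-91772971, minus strand): tccaccccgtctcatctgcccctgttcTAA
Cops9-204 (chr1:92641736-92641738, minus strand): cagtcgcagggcccgcgactgttaacgTGA
Dock9-209 (chr14:121591916-121591918, minus strand): ccaggaggggttgggacccataggtcaTGA
Pigk-207 (chr3:152822648-152822650, plus strand): caccaggatgtaatctcagctaccgctTAA
Vwa3b-201 (chr1:37142763-37142765, plus strand): cgtcctgctgacgaacaagtgtctagaTGA
The last 3 lines are transcripts whose share of their gene differed (Surf4-202, Ezh2-209) or that lies near the deleted locus (Camta2-208).
Surf4-202 (chr2:26924983-26924985, minus strand): ctgctgggacaattgaacaattgcctaTAG
Ezh2-209 (chr6:47546810-47546812, minus strand): cagcatctgccactcctacctaggaacTAA
Camta2-208 (chr11:70682980-70682982, minus strand): agccctggaggattgtggaaagggctgTAG
Among these 16, the stop exon was short in Surf4-202, at 44 bases, and long in Atp2a2-203, at 1534 bases. The poison exon of Srsf3-201 was the fourth of 7 exons and 456 bases long, that of Tra2a-202 the second of 9 exons and 306 bases long, and that of Srsf9-205 the second of 6 exons and 358 bases long. Pigk-207, Vwa3b-201 and Ezh2-209 carried their stop in an exon of 91, 88 and 82 bases that no coding transcript overlaps.

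Of the 6821 NMD transcripts with an annotated stop codon, 6787 (99.5%) had it at least 50 bases before the last exon junction, the distance behind the annotation. The median distance was 332 bases, with quartiles of 159 and 733 bases, and the median transcript had 3 junctions after the stop, 101 codons before it and 7 exons. TGA was the stop in 3935 transcripts (57.7%), TAA in 1544 (22.6%) and TAG in 1342 (19.7%). The stop lay in bases shared with a coding transcript in 4518 (66.2%), in a separate exon in 1345 (19.7%) and in an extended or retained part of an exon in 866 (12.7%), while 92 were in genes with no coding transcript. The reading frame was under 50% of the longest coding product of the gene in 5323, from 50% to 90% in 1037 and at least 90% in 369.

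The 20 libraries held 12752439 to 19617765 estimated counts. Summed regional markers lay on the side of their labels, with a shift between the genotypes in neocortex. The hippocampal sum ran from 719 to 887 counts per megacount of the library (CPM) in the hippocampal samples. In WT neocortex it ran from 109.1 to 146.6 CPM (median 134.9 CPM), and in miR-324-null neocortex from 118.9 to 271.3 CPM (median 205.1 CPM). The neocortical sum ran from 152 to 254 CPM in the hippocampal samples. It ran from 667.8 to 741.7 CPM in WT neocortex (median 726.1 CPM). In miR-324-null neocortex it was 536.9, 500, 571.8, 588.5 and 808.4 CPM (median 571.8 CPM). Single markers did not all follow. In miR-324-null mice the hippocampal marker Wfs1 had a median of 96.75 CPM in hippocampus and 125.2 CPM in neocortex. The neocortical marker Fezf2 had medians of 36.17 and 30.67 CPM there, in the same order. In WT mice the Fezf2 medians were 29.66 and 33.44 CPM, with overlapping ranges. The other markers of these sums had medians on the side of their label. Choroid plexus markers were high in WT hippocampus 3 (4546 CPM), miR-324-null hippocampus 5 (3895 CPM) and miR-324-null neocortex 2 (807.5 CPM) against group medians of 21.8 to 115 CPM. Striatal markers ran from 147 to 213 CPM in the hippocampal samples, from 214 to 564 CPM (median 258 CPM) in WT neocortex and from 334 to 903 CPM (median 516.5 CPM) in miR-324-null neocortex, with the highest values in WT neocortex 2 and miR-324-null neocortex 3.

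Most NMD transcripts were scarce. The values are kallisto estimates. Levels are in TPM, which corrects for transcript length and scales each sample to the same sum, while tests use estimated counts. The program splits reads that fit several transcripts of a gene among them. The estimated count was 0 in all 20 samples for 897 NMD transcripts, above 0 in all samples for 1539 and above 0 in some for 4386, and the mean count was at or under 3 for 3446. A mean of at least 1 TPM was reached by 2209, of at least 10 TPM by 439 and of at least 100 TPM by 34. The filter on low counts left 2421 that were tested in at least 1 of the 4 pairwise comparisons and 1866 that were tested in all of them. A splice junction of its own was annotated for 5698, and the median transcript held 3.98% of its 31-base words (the unit kallisto matches) in no other transcript. For 876 no such word was unique, and 433 shared over 50% of their words with other genes, so that the split of reads rests on the estimate alone.

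Together the NMD transcripts made up a small and steady part of the pool in every group. Their summed share of TPM was 2.43%, 2.53%, 2.47%, 2.57% and 2.58% in the 5 WT hippocampal samples and 2.63%, 2.61%, 2.62%, 2.66% and 2.57% in the miR-324-null hippocampal samples. In neocortex it was 2.57%, 2.50%, 2.71%, 2.62% and 2.47% in WT and 2.52%, 2.62%, 2.73%, 2.71% and 2.66% in miR-324-null. The groups overlapped in both tissues, with means ± SD (n = 5) of 2.52% ± 0.064, 2.62% ± 0.031, 2.58% ± 0.098 and 2.65% ± 0.085 in the same order, and the sum was not tested. Retained intron transcripts, another class that does not code for a full protein, held 5.3% to 6.42%.

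**Figure D1:**
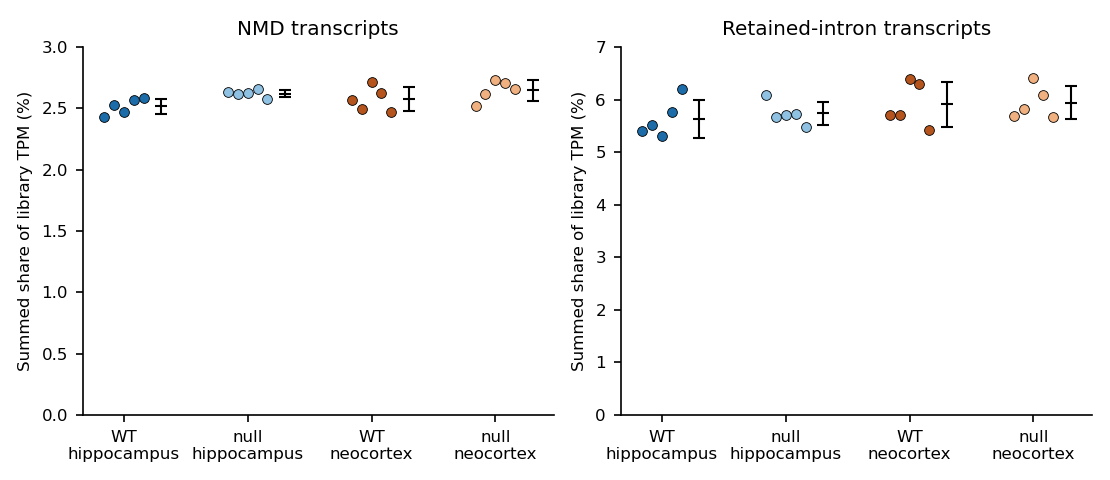
Summed share of TPM (%, linear axis) of NMD transcripts and of retained intron transcripts in each of the 20 samples, 1 point per sample, with the mean ± SD of the 5 samples of each group beside the points. NMD transcripts lie between 2.43% and 2.73% in every sample, and the WT and miR-324-null points overlap in both tissues.

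Within their genes the NMD transcripts were mostly a minor product. In the 3406 genes with an NMD transcript and a mean count of at least 50, the NMD transcripts together held a median of 5.55% of the TPM of the gene, with quartiles of 0.957% and 20%. They held more than 50% in 219 genes (6.43%) and under 1% in 866. Genes with no coding transcript were included in these counts. By group the median was 5.17% in WT hippocampus, 5.15% in miR-324-null hippocampus, 5.37% in WT neocortex and 5.82% in miR-324-null neocortex.

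Single NMD transcripts with short reading frames held smaller shares, by an amount that depended on how samples were averaged. Shares were first averaged over the 20 samples. Over the 5487 in genes with a mean count of at least 50, the median share of the gene was 2.29%, and 176 (3.21%) held at least 50%. Of these 176, 17 were among the 23 from genes with no coding transcript, whose median share was 100%. The median was 2.07% where the reading frame was under 50% of the longest coding product, 2.99% where it was 50% to 90% and 2.98% where it was at least 90%. A share of at least 50% was seen in 6.02% of the last class and in 2.73% of the first. By place of the stop the medians were 2.25% for shared bases, 2.13% for separate exons and 2.61% for extended or retained parts. Medians taken within single samples were lower. For shared bases they averaged 0.443%, 0.352%, 0.527% and 0.881% in WT and miR-324-null hippocampus, then WT and miR-324-null neocortex. For separate exons they were higher, at 0.961%, 0.8795%, 1.319% and 1.625% in the same order. In WT hippocampus they averaged 0.476% for frames under 50%, 1.84% for 50% to 90% and 1.73% for at least 90%. These are descriptions over transcripts, which share genes and reads and are not replicates, and the classes were not tested against each other.

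**Figure D2:**
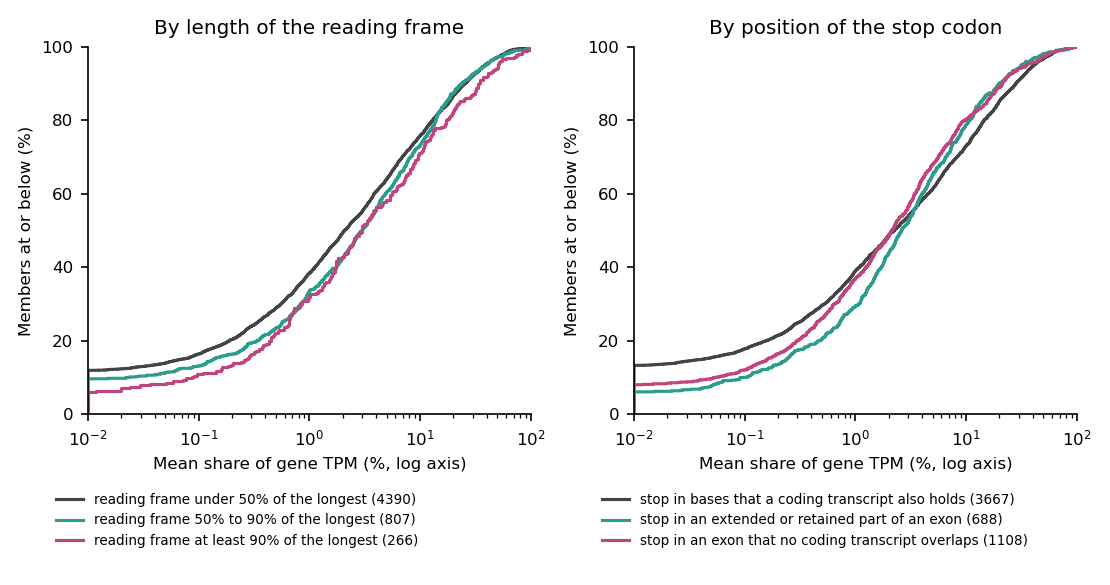
Cumulative distribution of the mean share of gene TPM (%, log axis, shares under 0.01% drawn at the left edge) of NMD transcripts in genes with a mean count of at least 50, by length of the reading frame against the longest coding product (left) and by position of the stop codon (right), with the number of transcripts in brackets. The curve of reading frames under 50% of the longest lies to the left of the other curves over most of the range, with a median of 2.07% against 2.99% and 2.98%.

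A few abundant transcripts carried much of the sum. The 12 highest held 21.6% of all NMD TPM, and Ppia-201, from the gene of the peptidyl-prolyl isomerase cyclophilin A, held 7.95% alone with a mean of 2048 TPM and 87.3% of its gene. Mobp-204, from the gene of a myelin-associated basic protein of oligodendrocytes, had 563 ± 110.2 TPM (SD, n = 5) in WT hippocampus, 547 ± 41.5 in miR-324-null hippocampus, 528 ± 48.02 in WT neocortex and 587 ± 89.1 in miR-324-null neocortex, and held 88.3% of its gene. Atp2a2-203, from the gene of the calcium pump SERCA2 of the endoplasmic reticulum, held 97.7% of its gene. Its stop comes after 1044 codons, 1258 bases before the last junction, and equals the longest coding product of the gene in length.

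Of the other 9, Rpsa-206 (521 TPM, 73.1% of the gene) and Rpl14-205 (343 TPM, 59.9%) come from genes of ribosomal proteins, and Gpi1-207 (400.2 TPM, 53.6%) and Mdh2-203 (204 TPM, 46.9%) from genes of glucose-6-phosphate isomerase and mitochondrial malate dehydrogenase. Calm3-202 (313 TPM) belongs to a calmodulin gene, Eif4a2-210 (275 TPM, 45.8%) to a translation initiation helicase, Slc22a17-204 (238 TPM, 42.8%) to a receptor of the solute carrier family, Ap2m1-203 (221 TPM, 23.95%) to the medium subunit of the AP-2 clathrin adaptor and Ndufa3-204 (204 TPM, 68.9%) to respiratory complex I. The levels of several are uncertain because other annotated genes share part of their sequence, and the kind of those genes was not examined. Of their 31-base words, 64.3% of Ppia-201, 71.5% of Rpl14-205, 78.2% of Rpsa-206, 75.5% of Ap2m1-203 and 47.5% of Gpi1-207 also occur in other genes. Mobp-204 is the clearest of the 12, since 70.5% of its words are its own and 0% occur in other genes.

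The difference between hippocampus and neocortex was the first comparison. In WT mice 92 of 2112 NMD transcripts tested passed an adjusted p of 0.05 (edgeR quasi-likelihood test, Benjamini-Hochberg over all transcripts), 39 higher and 53 lower in hippocampus. That is 4.36%, against 10.1% of all transcripts tested (5.28% higher and 4.82% lower). In miR-324-null mice 59 of 2206 passed, 33 higher and 26 lower, which is 2.67% against 6.73% of all transcripts (3.51% higher and 3.23% lower). At mean counts of 300 to 1000 in WT, 14.8% of NMD transcripts and 20.2% of coding transcripts were called, and at 1000 counts or more, a range with no upper end, 26.4% and 34.5%. These shares were not tested against each other. The count in miR-324-null mice moved with single libraries: it was 37 and 36 without miR-324-null hippocampus 2 and 5, and 37, 36, 35, 34 and 39 without miR-324-null neocortex 1, 2, 3, 4 and 5. Without the libraries with choroid plexus markers it was 28, and without the neocortical library of highest striatal markers it was 35. The WT count moved as well, and was 63 to 84 with 1 sample left out. It was 72 without the WT library with choroid plexus markers and 68 without the WT library of highest striatal markers.

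The 2 genotypes were measured in separate samples, and 28 NMD transcripts passed in both, 15 higher and 13 lower in hippocampus, all in the same direction. They are 30.4% of the WT calls and 47.5% of the miR-324-null calls. Of the WT calls that were also tested in miR-324-null mice 88 of 91 had the same sign there, and of the miR-324-null calls 56 of 58 had the same sign in WT.

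The largest changes, of level or of share, were named only among calls whose 2 groups of samples did not overlap. For transcripts named in this way the lack of overlap was a condition of the choice and is not a further result. Arpp19-202, Cpne9-204, Igfn1-202 and Grip2-204 were among the 13 transcripts lower in hippocampus in both genotypes. Arpp19-202 comes from the gene of a phosphoprotein that inhibits protein phosphatase 2A. It measured 21.8, 14.9, 10.7, 24.7 and 14.7 TPM in the WT hippocampal samples and 71.4, 78.1, 82.98, 69.03 and 65.96 TPM in the WT neocortical samples. In the miR-324-null mice it measured 13.5, 18.6, 20.1, 9.299 and 13.3 TPM in hippocampus and 40.3, 54.96, 72.6, 61.8 and 103 TPM in neocortex. No hippocampal sample of either genotype reached the lowest neocortical one. The log2 fold change (hippocampus over neocortex) was -2.04 ± 0.208 (SE, adjusted p = 0.000171) in WT and -2.05 ± 0.284 (adjusted p = 0.00224) in miR-324-null, while the whole gene moved by -1.86 and -1.71.

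Cpne9-204 is a product of the gene of copine 9, a protein that binds membranes in the presence of calcium. Its level in WT mice was 4.0, 6.86, 6.39, 5.39 and 6.2 TPM in hippocampus and 18.04, 22.8, 26.1, 22.5 and 25.5 TPM in neocortex. In miR-324-null mice it measured 1.41, 2.7, 5.26, 7.99 and 5.35 TPM in hippocampus and 17.8, 21.7, 24.5, 25.8 and 30.5 TPM in neocortex. The tissues did not overlap in either genotype, and the log2 fold change was -1.95 ± 0.16 (adjusted p = 4.53e-05) in WT and -2.33 ± 0.371 (adjusted p = 0.00459) in miR-324-null. It held 43.9 ± 9.57% of its gene in WT hippocampus and 38.1 ± 4.84% in WT neocortex (SD, n = 5).

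Igfn1-202, from the gene of a protein with immunoglobulin-like and fibronectin domains, had the largest drop among the transcripts named here. The WT values were 4.11, 0.572, 0.775, 0.402 and 1.07 TPM in hippocampus and 12.1, 8.58, 12.9, 13.8 and 10.8 TPM in neocortex. In miR-324-null mice it measured 0.341, 0.446, 0.605, 1.003 and 0.591 TPM in hippocampus and 10.2, 3.46, 8.52, 11.5 and 8.41 TPM in neocortex. All hippocampal samples were low apart from WT hippocampus 1, which still lay below the WT neocortex. The log2 fold change was -2.94 ± 0.6 (adjusted p = 0.0107) and -3.73 ± 0.398 (adjusted p = 0.000621), with -3.38 and -4.17 for the gene.

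Grip2-204 belongs to a PDZ scaffold that binds AMPA-type glutamate receptors. The transcript measured 5.91, 5.42, 4.32, 5.78 and 8.07 TPM in WT hippocampus and 12.2, 11.3, 13.6, 14.1 and 11.8 TPM in neocortex, and in miR-324-null mice 5.55, 4.48, 5.704, 5.86 and 4.59 TPM and 10.8, 14.3, 12.9, 11.3 and 12.2 TPM. The tissues did not overlap, with a log2 fold change of -1.04 ± 0.142 (adjusted p = 0.000967) in WT and -1.14 ± 0.0997 (adjusted p = 0.000252) in miR-324-null. This transcript held 95.9 ± 6.72% of the gene in WT hippocampus and 91.2 ± 5.07% in WT neocortex, so it is nearly all of what was assigned to the gene.

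Cops9-204, Dock9-209, Ccbe1-201 and Pigk-207 were among the 15 transcripts higher in hippocampus in both genotypes. Cops9-204 comes from the gene of a small subunit of the COP9 signalosome, which removes the NEDD8 tag from cullin ubiquitin ligases. In WT mice it measured 48.3, 55.6, 51.9, 46.4 and 48.5 TPM in hippocampus and 21.7, 21.9, 18.1, 19.4 and 22.2 TPM in neocortex. In miR-324-null mice it measured 53.7, 66.1, 37.4, 51.7 and 46.7 TPM in hippocampus and 18.5, 20.1, 17.7, 16.4 and 18.9 TPM in neocortex. Every hippocampal sample was above every neocortical sample. The log2 fold change was 1.32 ± 0.125 (adjusted p = 0.000104) in WT and 1.58 ± 0.18 (adjusted p = 0.00083) in miR-324-null, against 0.65 and 0.72 for the gene. Its share of the gene was 18.8 ± 2.35% in hippocampus and 11.5 ± 1.25% in neocortex of WT mice, and 18.9 ± 2.66% and 10.1 ± 0.321% in miR-324-null mice, differences that missed the threshold over all shares (adjusted p = 0.269 and 0.147, limma).

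Dock9-209 comes from the gene of an exchange factor that activates the small GTPase Cdc42, a regulator of dendrite growth. In WT mice it measured 12.8, 18.9, 19.1, 18.1 and 18.9 TPM in hippocampus and 6.38, 5.61, 7.17, 7.88 and 6.55 TPM in neocortex, and in miR-324-null mice 17.1, 16.1, 18.6, 20.6 and 16.01 TPM and 7.83, 9.94, 5.52, 12.9 and 7.98 TPM. The tissues did not overlap, and the log2 fold change was 1.43 ± 0.115 (adjusted p = 4.29e-05) in WT and 1.09 ± 0.191 (adjusted p = 0.0073) in miR-324-null. Ccbe1-201, from the gene of a secreted protein needed for lymphatic vessel growth, measured 5.46, 7.44, 7.55, 7.901 and 6.41 TPM in WT hippocampus and 2.54, 1.91, 2.35, 1.56 and 3.0 TPM in WT neocortex. It rose by 1.65 ± 0.182 (adjusted p = 0.000269) in WT and 1.91 ± 0.191 (adjusted p = 0.000471) in miR-324-null, as did its gene (1.61 and 1.87).

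Pigk-207 differed where its gene did not pass the test. The gene codes for the catalytic subunit of the transamidase that attaches GPI anchors, and the stop of this transcript lies in an exon of its own. The level in WT mice was 1.76, 1.06, 1.59, 1.99 and 1.702 TPM in hippocampus and 0.319, 0.364, 0.837, 0.908 and 0.395 TPM in neocortex, and in miR-324-null mice 2.04, 0.978, 1.76, 2.04 and 1.99 TPM and 0.857, 0.695, 0.718, 1.06 and 0.519 TPM. The tissues did not overlap in WT, and in miR-324-null mice 1 hippocampal sample, at 0.978 TPM, fell within the neocortical range. The log2 fold change was 1.56 ± 0.337 (adjusted p = 0.0146) in WT and 1.29 ± 0.265 (adjusted p = 0.0169) in miR-324-null, while the gene was at 0.03 (adjusted p = 0.679) and 0.09 (adjusted p = 0.264). The share of the gene was 5.57 ± 1.13% against 1.94 ± 0.905% in WT (SD, n = 5), with an adjusted p of 0.354 over all shares. Of its 31-base words 61.3% are its own.

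**Figure D3:**
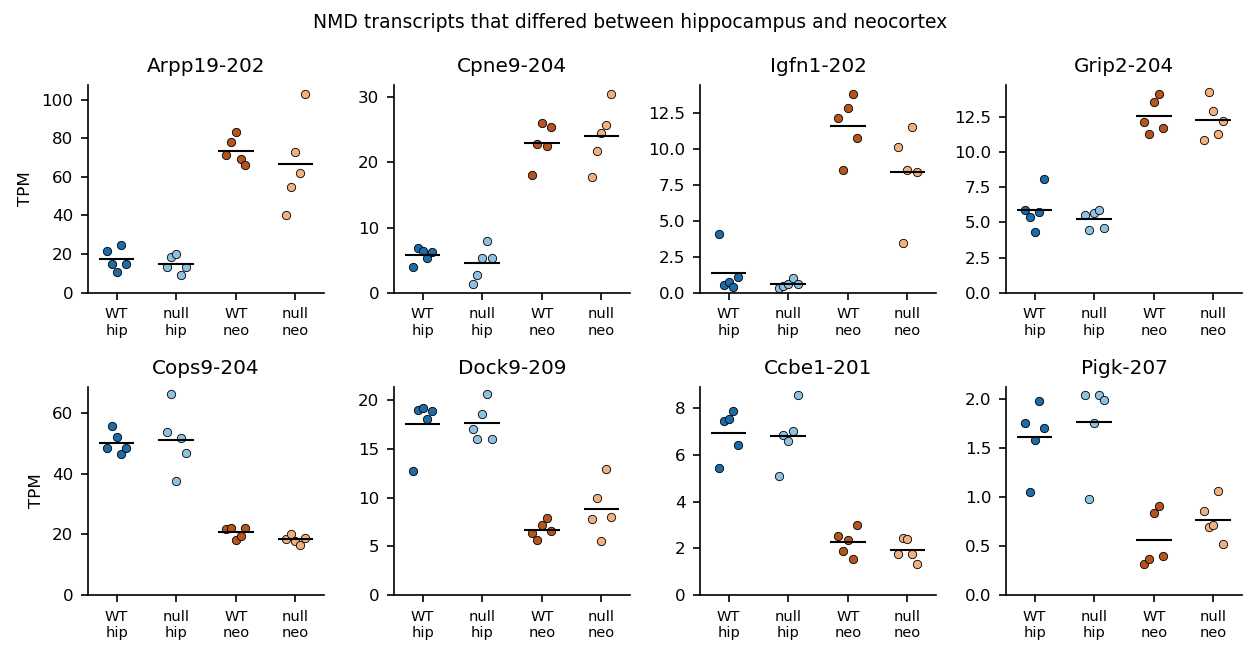
TPM (linear axes from 0, 1 scale per panel) of 8 NMD transcripts in the 4 groups, 1 point per sample and a line at the mean of 5. Arpp19-202, Cpne9-204, Igfn1-202 and Grip2-204 are lower and Cops9-204, Dock9-209, Ccbe1-201 and Pigk-207 higher in hippocampus in both genotypes, and the tissues overlap within a genotype for Pigk-207 in miR-324-null mice only.

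Camta2-208 and Lars2-209 were also higher in hippocampus. Camta2-208, from the gene of a calmodulin-binding transcription activator, measured 15.1, 12.7, 13.5, 10.99 and 10.2 TPM in WT hippocampus and 5.75, 6.41, 5.75, 5.99 and 5.12 TPM in WT neocortex, without overlap. Its log2 fold change was 1.16 ± 0.134 (adjusted p = 0.000357) in WT and 1.16 ± 0.193 (adjusted p = 0.0058) in miR-324-null. Lars2-209, from the gene of the mitochondrial leucyl-tRNA synthetase, rose by 1.20 ± 0.193 (adjusted p = 0.00268) in WT, and its gene by 1.03. Both were named for their genotype values, given further on, after those values were seen.

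Other transcripts were named by the same rule for their size of change in WT tissue. Vwa3b-201, with a von Willebrand factor domain in the product of its gene, measured 1.497, 2.05, 1.66, 2.12 and 0.983 TPM in WT hippocampus and 0, 0.2403, 0, 0 and 0.212 TPM in WT neocortex, a log2 fold change of 4.16 ± 0.945 (adjusted p = 0.0191) on neocortical counts near the floor of 3. Stac-202, from the gene of an adaptor with an SH3 domain, rose by 3.42 ± 0.653 (adjusted p = 0.00734), and Erc1-208, of a presynaptic active zone gene, by 1.55 ± 0.401 (adjusted p = 0.0358). Stx1a-204, from the gene of the SNARE protein syntaxin 1A, fell by 1.78 ± 0.38 on the log2 scale (adjusted p = 0.0138), from 11.96 ± 2.86 TPM in WT neocortex to 3.39 ± 1.88 TPM in WT hippocampus (SD, n = 5). The adhesion genes gave Cdh7-204 (-1.83) and Pcdh7-206 (-1.40), and Stard10-209 (-1.43), of a lipid transfer protein, and Ptprh-205 (-1.36), of a receptor phosphatase, were lower too. The calls for Pcdh7-206, Ptprh-205, Stard10-209 and Erc1-208 were lost in 14, 12, 11 and 9 of 17 alternative settings. The gene was called in the same direction for all 8, at 4.04 for Vwa3b, 3.198 for Stac, -1.49 for Stx1a, -1.45 for Cdh7, -1.45 for Pcdh7, -1.24 for Stard10, -1.35 for Ptprh and 0.396 for Erc1.

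Among the most abundant transcripts, Atp2a2-203 was lower in WT hippocampus, at 197, 207, 203, 219.8 and 202 TPM, than in WT neocortex, at 279.9, 250.1, 273, 262 and 246 TPM. The groups did not overlap, although the log2 fold change was only -0.30 ± 0.0309 (adjusted p = 0.000166). Ap2m1-203 was lower, at -0.28 ± 0.0563 (adjusted p = 0.00881) and Ndufa3-204 higher, at 0.46 ± 0.0813 (adjusted p = 0.00487).

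In miR-324-null mice some transcripts passed that did not pass in WT. Gls2-211, from the gene of a glutaminase that makes glutamate in mitochondria, measured 2.33, 2.58, 2.91, 3.11 and 3.08 TPM in hippocampus and 5.49, 8.95, 9.24, 10.6 and 8.48 TPM in neocortex of miR-324-null mice, without overlap. Its log2 fold change was -1.51 ± 0.167 (adjusted p = 0.000727), while its gene was at -0.704. In WT mice it measured 4.24, 5.04, 3.58, 6.79 and 3.02 TPM in hippocampus and 5.69, 3.798, 5.36, 6.83 and 5.698 TPM in neocortex, where the groups overlapped. The difference between the tissue effects of the genotypes was -1.29 ± 0.278 on the log2 scale, with an adjusted p of 1 in edgeR and 0.012 in DESeq2 over all transcripts.

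Zfp451-206, from the gene of a zinc finger SUMO ligase, measured 4.11, 3.19, 3.61, 4.31 and 3.85 TPM in hippocampus and 0.898, 0.451, 1.303, 2.35 and 0.337 TPM in neocortex of miR-324-null mice. The samples did not overlap (log2 fold change 1.94 ± 0.456, adjusted p = 0.0308), while the gene was at -0.097 (adjusted p = 0.264). This call was lost in 12 of 17 alternative settings, 8 of which left out 1 sample. In WT mice the means were 3.18 ± 1.42 TPM and 2.83 ± 0.945 TPM (SD, n = 5). Slc25a22-204, from the gene of a mitochondrial glutamate carrier, was present in all 5 miR-324-null hippocampal samples at 3.43, 0.467, 1.13, 1.42 and 1.58 TPM and had under 0.01 counts in every neocortical sample. That is at least 13.6-fold higher in miR-324-null hippocampus against a floor of 3 counts per library, on a mean of 33.2 counts, and it held under 1% of its gene. In WT hippocampus Slc25a22-204 had a mean of 4.67 counts, with WT hippocampus 3 standing apart from the other samples at 1.03 TPM.

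Atp2b2-206, from the gene of a plasma membrane calcium pump, was lower in hippocampus in both genotypes, at -0.77 ± 0.179 (adjusted p = 0.021) in WT and -1.26 ± 0.211 (adjusted p = 0.00585) in miR-324-null. Nabp1-204, of a single-strand DNA binding protein, was higher by 1.63, Cpne6-204, of another copine, by 2.13, Hip1r-207, of an actin-linked endocytosis protein, lower at -1.42 and Atp11a-207, of a phospholipid flippase, lower at -1.75 in miR-324-null mice. Of 17 alternative settings the call was lost in 2 for Nabp1-204, 6 for Cpne6-204, 12 for Hip1r-207 and 14 for Atp11a-207, and that for Atp2b2-206 in 6 in WT and 0 in miR-324-null mice. Cpne6-204 was also called higher in hippocampus in WT mice, a call lost in 7 of 17 alternative settings.

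The tissue difference of each called transcript was set beside that of its gene, whose total contains the transcript. In WT the gene was called in the same direction for 85 of the 92 (92.4%) and not called for 7, against 94.3% in the same direction over all called transcripts. In miR-324-null mice the gene was called in the same direction for 47 of the 59 (79.7%) and not called for 12, against 91.8% over all called transcripts. No gene was called in the other direction in either. The median size of the log2 change was 0.8 for the transcript and 0.57 for the gene in WT, and 0.98 and 0.49 in miR-324-null. For called transcripts the share of the gene was tested in 86 and 57 cases and passed in 0 and 0, with 22 and 21 at an unadjusted p under 0.05 by limma. The shares of these transcripts had a median of 34.4% and 25.9% of the gene, and the median SE of the difference was 2.57 and 2.5 percentage points, so a p over the threshold does not show that a share was equal. Transcripts were picked here by their size of change, so the larger change of the transcript than of the gene is a description.

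**Figure D4:**
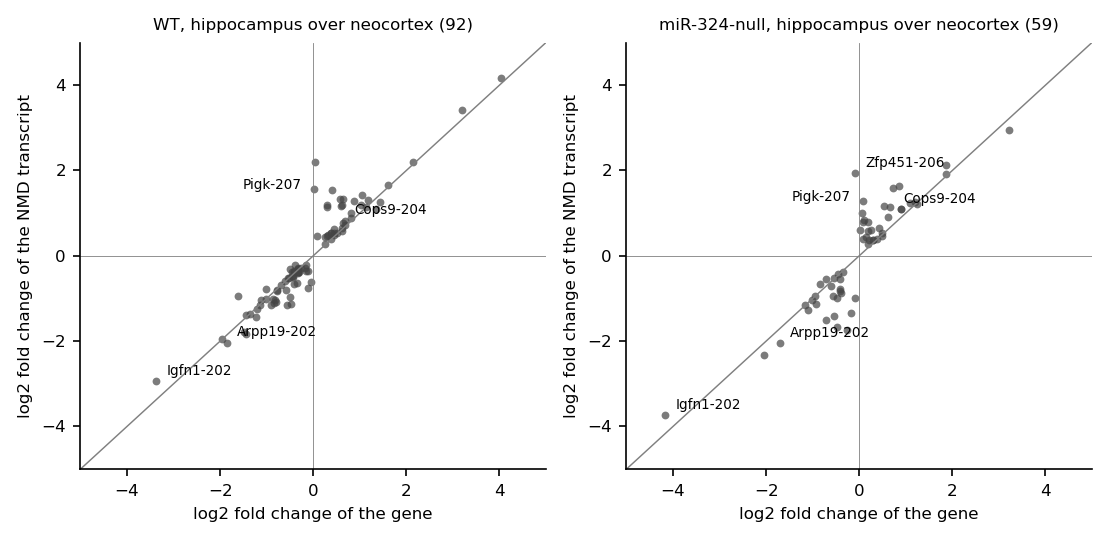
Log2 fold change (hippocampus over neocortex) of each NMD transcript that passed the test, on the vertical axis, against that of its gene, on the horizontal axis, for WT (92, left) and miR-324-null (59, right), with the diagonal where both are equal. The gene total contains the transcript, no gene is called in the opposite direction, and Pigk-207 and Zfp451-206 stand near 0 on the gene axis. Slc25a22-204 in miR-324-null mice, fitted at 8.25, lies outside the axes and is not drawn.

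What share of its gene an NMD transcript takes is a separate measure. Between tissues it passed for 2 of 3382 in WT mice, which is 0.0591% against 0.0867% of all shares tested, and for 1 of 3433 in miR-324-null mice, 0.0291% against 0.0645%. Ezh2-209, from the gene of the histone methyltransferase of Polycomb complex 2, was at 0 in all 5 WT hippocampal samples and held 10.4, 22.8, 7.44, 12.4 and 17.6% of its gene in WT neocortex (adjusted p = 0.00999, limma). These shares rest on a mean of 4.27 counts, at least 1.4-fold above the floor, and none of its 31-base words is its own. In the miR-324-null neocortex 3 samples were at 0, 1 was at or under 2.3e-05% and 1 held 6.36%. Nbeal1-205, of a BEACH domain protein, was at 0 in WT hippocampus and held 7.49, 2.38, 3.92, 2.21 and 3.91% in WT neocortex (adjusted p = 0.049) on 6.52 counts. Zfp28-202, of a zinc finger gene, held 12.8, 14.9, 15.96, 18.4 and 13.4% in miR-324-null neocortex and 0, 5.26, 0, 0 and 0% in miR-324-null hippocampus (adjusted p = 0.0441) on 6.67 and 0.285 counts. The call for Nbeal1-205 was lost in 13 of 15 and that for Zfp28-202 in 14 of 15 alternative settings. Settings in which a share was not tested are not in these counts. With shares of estimated counts Nbeal1-205 was not among the calls, and Ezh2-209 was not among those at a gene count of at least 200.

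The comparison of miR-324-null with WT mice was the question of the study. No NMD transcript passed in the hippocampus (0 of 2044 by edgeR, lowest adjusted p 0.432) or in the neocortex (0 of 2190, lowest adjusted p 0.344), where 0.0291% and 0.0249% of all transcripts passed. At an unadjusted p under 0.05 there were 71 (3.47%) and 105 (4.79%), against 4.62% and 6.26% of all transcripts. DESeq2 called 7 and 8. By median, striatal and hippocampal marker sums were higher and the neocortical sum was lower in miR-324-null than in WT neocortex (medians given above). The part of these differences in the neocortical values was not tested. The median log2 fold change over the tested NMD transcripts was 0.015 in hippocampus and 0.0089 in neocortex, beside -0.00054 and 0.0062 over all transcripts.

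The precision limits what a count of 0 can say. The 95% interval of the fold change lay within 1.5-fold in both directions for 355 of 2044 (17.4%) in hippocampus and 437 of 2190 (20%) in neocortex, within 2-fold for 835 (40.9%) and 962 (43.9%) and within 4-fold for 70.2% and 71.7%. These intervals come from the spread between samples.

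Named for DESeq2's calls after their values were seen, a few transcripts give the size of what was measured. Camta2-208 measured 15.1, 12.7, 13.5, 10.99 and 10.2 TPM in WT hippocampus and 6.51, 7.64, 7.1, 7.93 and 8.47 TPM in miR-324-null hippocampus. In neocortex it measured 5.75, 6.41, 5.75, 5.99 and 5.12 TPM in WT and 2.18, 5.203, 3.301, 3.96 and 3.41 TPM in miR-324-null. The genotypes did not overlap in hippocampus and overlapped slightly in neocortex. The log2 fold change was -0.74 ± 0.135 in hippocampus and -0.74 ± 0.191 in neocortex, with adjusted p of 0.432 and 0.555 by edgeR and 0.00085 and 0.0376 by DESeq2. Its gene was at -0.23 and -0.16 (adjusted p = 0.264 and 0.383, edgeR).

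The gene of Camta2-208 lies on chromosome 11 at chr11:70669463-70686389 (GRCm38, minus strand), 0.657 Mb from miR-324 at chr11:70012043-70012131. A segment around the targeted locus can keep the background of the founder mice through backcrossing. Of NMD transcripts on chromosome 11, 8 of 120 (6.67%) had an unadjusted p under 0.05 in hippocampus against 63 of 1924 (3.27%) on the other chromosomes, and in neocortex 8 of 123 (6.5%) against 97 of 2067 (4.69%). The lowest adjusted p on chromosome 11 was 0.432 in hippocampus and 0.344 in neocortex (edgeR), the same as the lowest over all NMD transcripts. The part of linked sequence in these values was not tested.

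Naa60-201, from the gene of a Golgi N-terminal acetyltransferase, measured 17.6, 18.9, 19.4, 13.5 and 11.4 TPM in the WT and 24.03, 39.3, 33.4, 28.7 and 48.3 TPM in the miR-324-null samples of the hippocampus, with no overlap (log2 fold change 1.10 ± 0.221, adjusted p = 0.475 by edgeR and 0.00233 by DESeq2). None of its 31-base words is its own. Gria3-206, from the gene of an AMPA receptor subunit, measured 16.2, 25.01, 27.8, 24.9 and 23.1 TPM in the WT and 36.9, 28.1, 34.8, 40.3 and 31.4 TPM in the miR-324-null hippocampal samples, again with no overlap (log2 fold change 0.55 ± 0.126, adjusted p = 0.714 and 0.0227). It held 38.6 ± 7.82% of its gene in the WT and 55.5 ± 5.76% in the miR-324-null samples (SD, n = 5), while the gene total was at 0.01. The difference in share did not pass (adjusted p = 0.857, limma), and 0.53% of the 31-base words of Gria3-206 are its own. In neocortex Gria3-206 overlapped between genotypes, at -0.05 ± 0.196.

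In neocortex Luc7l3-204, from the gene of a splicing factor of the U1 particle, measured 5.04, 5.203, 9.41, 7.47 and 9.75 TPM in WT and 16.1, 20.5, 15.03, 18.5 and 13.5 TPM in miR-324-null mice, without overlap (log2 fold change 1.13 ± 0.219, adjusted p = 0.344 by edgeR and 0.000752 by DESeq2). In hippocampus the values ran from 0 to 11.8 TPM in WT and from 2.98 to 20.8 TPM in miR-324-null, which overlap. The gene of Luc7l3-204 is also on chromosome 11, as is miR-324. The part of linked sequence in the values of Luc7l3-204 was not tested. Lars2-209 was at 0.64 ± 0.141 and Pip5k1c-208, of a lipid kinase of nerve terminals, at -0.31 ± 0.0667 in neocortex, with edgeR adjusted p of 0.412 and 0.401.

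The share of the gene differed between genotypes for 1 of 3344 NMD transcripts in hippocampus (0.0299%, against 0.0258% of all shares) and 0 of 3452 in neocortex (against 0.0373%). Precision was limited, since the tested shares had a median of 6.65% of the gene in hippocampus and 7.01% in neocortex, and the median SE of the difference was 2.88 and 2.67 percentage points. Unadjusted p was under 0.05 for 166 (4.96%, against 4.72% of all) and 233 (6.75%, against 6.06%). Surf4-202, from the gene of a cargo receptor of the endoplasmic reticulum, held 7.64, 3.77, 4.43, 8.91 and 8.11% of its gene in WT hippocampus and was at 0 in all 5 miR-324-null hippocampal samples (adjusted p = 0.0231, limma). In counts it was at least 4.04-fold higher in WT against a floor of 3 counts per library, on a mean of 12.4 counts. In neocortex it ran from 0% to 7.84% in WT and from 0% to 8.93% in miR-324-null. The call in hippocampus was lost in 7 of the 14 alternative settings in which this share was tested. With shares of estimated counts Surf4-202 was not among the calls, and another NMD transcript, Gtf2ird1-225, passed. Mettl23-203, from the gene of a methyltransferase, had the lowest adjusted p in neocortex, 0.0527. Its share was 0.869% ± 1.64 in WT and 18.2% ± 6.43 in miR-324-null neocortex (SD, n = 5). None of the 31-base words of Mettl23-203 is its own, and it too was named after its values were seen. The lowest adjusted p of neocortical shares on chromosome 11, which holds miR-324, was the same 0.0527 (limma). The part of linked sequence in the share of Mettl23-203 was not tested.

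Whether the genotype changed the tissue difference was tested as an interaction over all 20 samples. No NMD transcript passed (0 of 2684 by edgeR, against 0.00243% of all transcripts). At an unadjusted p under 0.05 by edgeR there were 100 (3.73%, against 3.87% of all transcripts). DESeq2 called 3, Gls2-211 (log2 change -1.28), Gpcpd1-213 (-22.059) and Ncstn-206 (-20.596). The fitted sizes of Gpcpd1-213 and Ncstn-206 were not read as measured changes. No share passed (0 of 3428 by limma, against 0.00624%), and 190 had an unadjusted p under 0.05 (5.54%, against 4.95% of all shares).

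The SR proteins, which bind exon enhancers and recruit the splicing machinery, are the best known hosts of poison exons. Of 13 genes listed 10 had an NMD transcript, 18 in all, and 12 of these (66.7%) carried the stop in a separate exon, against 19.7% of all NMD transcripts. The median share of the gene was 5.45%, against 2.29% over all. Srsf3-201 was the most abundant, at 37.6, 37.9, 37.7, 38.6 and 43.2 TPM in WT hippocampus and 37.7, 38.9, 42.9, 37.1 and 48.4 TPM in miR-324-null hippocampus. In neocortex it measured 40.8, 36.8, 40.9, 38.7 and 42.5 TPM in WT and 43.4, 39.9, 42.6, 44.7 and 45.1 TPM in miR-324-null. None of its 31-base words is its own, so its level rests on the split of shared reads. All 4 groups overlapped, and the share of the gene was 24.2 ± 2.99%, 26.8 ± 2.31%, 27.1 ± 3.96% and 28.6 ± 3.19% in the same order (SD, n = 5).

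Other SR transcripts, named after their values were seen, held like shares. Srsf6-201 was at 36.4 ± 3.15%, 39.9 ± 5.82%, 38.01 ± 2.89% and 39.05 ± 3.81% of its gene, and Srsf1-204 at 30.5 ± 3.51%, 33.7 ± 2.19%, 30.7 ± 2.37% and 29.9 ± 3.23%. Tra2a-202 held 28.5, 29.7, 27.4, 23.7 and 29.6% in the WT hippocampal samples and 31.2, 31.5, 43.8, 34.6 and 32.2% in the miR-324-null hippocampal samples. Every miR-324-null value was above every WT value for the share in hippocampus, but the difference had an unadjusted p of 0.0437 and an adjusted p of 1 in limma. In WT neocortex the share of Tra2a-202 spread from 25.6% to 47.4%. For level, 10 to 12 SR transcripts were tested per pairwise comparison. Of the SR transcripts only Srsf9-205 passed a test, and only for the level between tissues in miR-324-null mice (0.66 ± 0.162, adjusted p = 0.0384), a call lost in 12 of 17 alternative settings. It measured 18.7, 23.7, 17.99, 17.2 and 20.6 TPM in hippocampus and 13.2, 11.2, 11.9, 13.2 and 17.1 TPM in neocortex there, and its gene rose by 0.43.

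**Figure D5:**
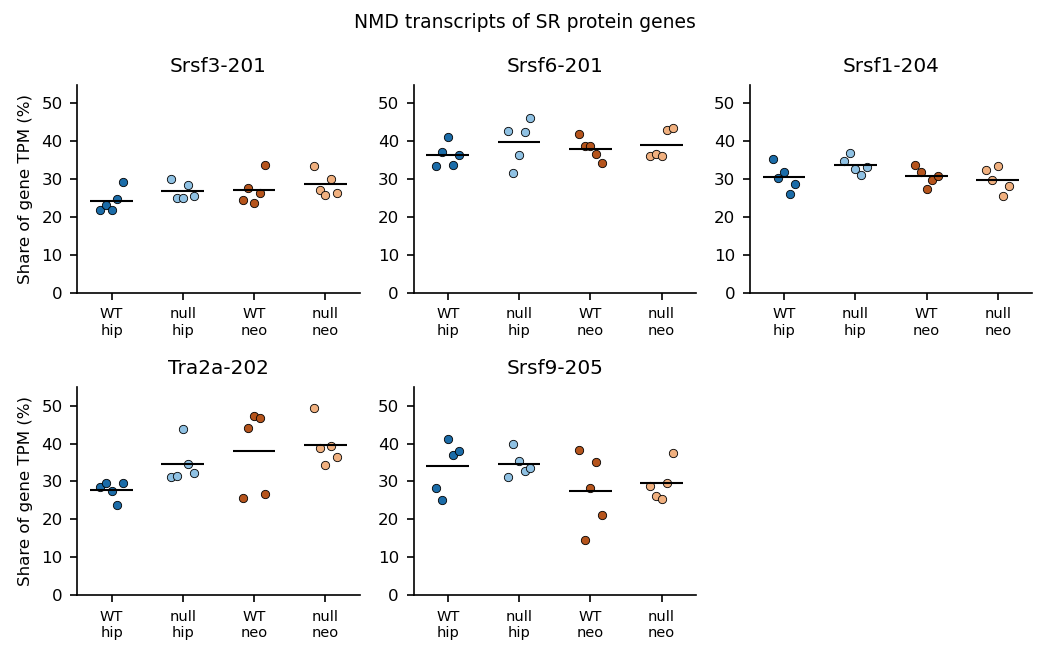
Share of gene TPM (%, linear axes from 0) of NMD transcripts of SR protein genes in the 4 groups, 1 point per sample and a line at the mean of 5. The groups overlap for Srsf3-201, and the spread of Tra2a-202 in WT neocortex, from 25.6% to 47.4%, is wider than in the other groups.

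Among other hosts, the hnRNPs and related splicing regulators (49 genes, 26 with an NMD transcript, 69 in all) had a median share of 1.53%. For level, 36 to 37 of them were tested per pairwise comparison. Hnrnpu-206 was -0.21 ± 0.0579 (adjusted p = 0.0497) and Hnrnpk-203 2.19 ± 0.594 (adjusted p = 0.0443) between tissues in WT, calls that were lost in 12 and 14 of 17 alternative settings, and 85.9% of the words of Hnrnpk-203 occur in other genes. Khdrbs3-204, of the KH domain splicing regulator T-STAR, was the highest of this list with a mean of 49.8 TPM. The spliceosome and splicing kinases (20 genes, 18 with an NMD transcript, 34 in all) had 0 calls, with 21 to 24 tested for level per pairwise comparison. Ddx5-208, of an RNA helicase, led at 101 TPM and 22.02% of its gene. Over all transcripts tested, 10.1% were called between tissues in WT and 6.73% in miR-324-null mice.

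Ribosomal protein genes (86, of which 18 had 24 NMD transcripts) gave 1 call, Rpl6-208 between tissues in miR-324-null mice (0.38 ± 0.0987, adjusted p = 0.0494), with 86.8% of its words in other genes and the call lost in 13 of 17 alternative settings. Of the 24, 12 to 13 were tested for level per pairwise comparison. Synaptic proteins and ion channels (63 genes, 17 with 30 NMD transcripts, 18 tested for level per pairwise comparison) gave 1 call, Stx1a-204 in WT tissue. Dnm1-206, of the vesicle fission GTPase dynamin 1, was the highest of them at 177 TPM and 21.2% of its gene. In the genotype comparisons 0 transcripts of any of these lists passed by edgeR, where 0.0291% of all transcripts passed in hippocampus and 0.0249% in neocortex. The median log2 fold change in WT tissue was -0.34 over the 18 synaptic transcripts tested and -0.075 in miR-324-null, beside -0.0067 and -0.016 over all transcripts.

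The machinery of the pathway was measured at the level of whole genes. All 23 listed genes were tested (the UPF and SMG factors, the exon junction complex, the release factors and helpers), and 0 passed between genotypes by edgeR in hippocampus (lowest adjusted p 0.342, 0.115% of all genes passed) or neocortex (lowest adjusted p 0.459, 0.315% of all genes). The log2 fold changes between genotypes ran from -0.164 to 0.217 in hippocampus and from -0.262 to 0.107 in neocortex. Upf1, the helicase at the centre of the pathway, measured 64.6 ± 3.41 CPM in WT hippocampus, 59.9 ± 2.92 in miR-324-null hippocampus, 61.3 ± 3.13 in WT neocortex and 61.1 ± 5.20 in miR-324-null neocortex (SD, n = 5), 4 groups that overlap.

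Between tissues 7 of the 23 passed in each genotype, against 36.1% of all genes in WT (18.1% higher and 18% lower) and 27.4% in miR-324-null (13.8% higher and 13.6% lower). In WT Gspt2, a release factor (0.234), Pnrc2, a decapping helper (0.206), and Ncbp1, a cap-binding protein (0.168), were higher in hippocampus, and those lower included Smg9 (-0.379), Smg5 (-0.162) and Rnps1 (-0.130). In miR-324-null mice Gspt2 (0.359), Rbm8a (0.295) and Eif4a3 (0.285), both of the exon junction core, Pnrc2 (0.231) and Ncbp1 (0.215) were higher and Smg9 (-0.358) and Smg5 (-0.273) lower, all on the log2 scale. The WT count was 4 without WT hippocampus 3, without WT neocortex 4 and without the libraries with choroid plexus markers.

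NMD transcripts of the machinery itself were 7, from 5 of the genes, with a median share of 19.56%. In each pairwise comparison 3 to 4 were tested for level and 5 to 6 for share, with 0 calls. Smg6-202, from the gene of the endonuclease that cuts NMD targets, was the highest at 7.36 TPM and held 45.9 ± 7.92%, 44.03 ± 11.2%, 44.99 ± 10.2% and 43.1 ± 4.68% of its gene in the 4 groups in the order WT hippocampus, miR-324-null hippocampus, WT neocortex and miR-324-null neocortex.

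Well known natural substrates of NMD, listed by gene rather than by the annotated type, served as a further view. Of 10 listed genes 5 were matched and 0 had a transcript of the NMD type. None of the 5 passed between genotypes by edgeR. Gadd45a, a stress-response gene, was lower in hippocampus in WT (-1.16, adjusted p = 1.23e-05) and in miR-324-null mice (-0.938, adjusted p = 0.00136), and Atf4, a stress transcription factor, was lower in WT (-0.347, adjusted p = 0.00174).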

How the data were processed

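Total RNA from 20 mouse hippocampal and neocortical samples was made into stranded poly(A) libraries. The authors quantified reads with kallisto against Ensembl release 92 of GRCm38 and deposited estimated counts and TPM per transcript. The submitters' notes list the human build GRCh38, whereas all identifiers in the tables are of mouse. Their own tests used DESeq2. Versions are not given in the sources used here. The deposited estimated counts were not normalised, and the deposited TPM values were scaled to transcript length and to the same sum in each sample by kallisto.

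Identifiers without version were matched to GENCODE M21 (Ensembl release 96). Of 115270 transcripts 113580 matched, and the 1690 others held at most 0.556% of the counts of a sample. Of the 6822 NMD transcripts 6789 had the same version. Estimated counts were rounded, filtered with filterByExpr, scaled by TMM and tested with edgeR (4.0.16, R 4.3.3) over all transcripts, and over genes for gene sums. Shares of gene TPM were tested with limma (3.58.1) after an arcsine square root in genes with a mean count of at least 50 and a mean share of 0.01 to 0.99. An adjusted p of at most 0.05 was called. Each fit held the 2 groups compared, and the interaction all 20 samples. DESeq2 (1.42.0), other filters and scalings, single samples left out and a replicate block were alternatives. Scripts were tested on simulated data.

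Named were the 12 NMD transcripts of highest mean TPM, the 8 largest changes each way among called ones whose groups did not overlap, the 5 largest share changes each way on the same terms, and called or leading transcripts of the host gene lists. Others are said to be chosen after their values were seen, and a few items are not reported here. The NMD transcripts and lists were chosen with earlier results of these data known. The counting error of a deposited estimate is not known, and intervals come from the spread between samples.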

Additional observations from a re-analysis of the deposited data

Results flagged for a closer look

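In 119 groups of 5 samples, over the transcripts given by sample, the gap of the highest or lowest sample to its nearest neighbour was set against the range of the group, and 9 groups exceeded the critical ratio of 0.71. Chance alone flags about 1 group in 20. For tissue-dependent transcripts, Dock9-209 was low in WT hippocampus 1 at 12.75 TPM, Igfn1-202 was high in WT hippocampus 1 at 4.11 TPM, Pigk-207 was low in miR-324-null hippocampus 2 at 0.978 TPM, Vwa3b-201 was high in miR-324-null neocortex 1 at 0.556 TPM and Slc25a22-204 was high in WT hippocampus 3 at 1.03 TPM. For splicing factor transcripts, Srsf3-201 at 43.2 TPM and Tra2a-202 at 17.2 TPM were both high in WT hippocampus 5, Hnrnpu-206 was high in miR-324-null neocortex 4 at 46.6 TPM, and Hnrnpk-203 was at 0 TPM in WT neocortex 1. WT hippocampus 3 is also the library with the highest choroid plexus markers, and the part of these in the value of Slc25a22-204 was not tested.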

How the results depend on the processing

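Of 841 alternative values for 50 results on single NMD transcripts, 635 kept direction and call, 206 kept direction and lost the call and 0 reversed. 24 of the 50 results were called in every alternative, among them both tissue results of Arpp19-202, Cpne9-204, Igfn1-202, Grip2-204, Cops9-204, Dock9-209, Ccbe1-201 and Camta2-208. With DESeq2 the transcripts called were 7 and 8 between genotypes in hippocampus and neocortex, 144 and 133 between tissues in WT and miR-324-null and 3 for the interaction. These counts cover NMD transcripts only, and the share of all transcripts that DESeq2 called is not given. Without a filter on low counts the tissue calls were 57 and 31, of which 53 and 27 were among the 92 and 59. One fit over all 20 samples gave 89 in WT, 73 of them among the 92, and 102 in miR-324-null, 51 of them among the 59. The replicate block gave 51 and 22 tissue calls and 0, 0 and 0 share calls in hippocampal genotype, WT tissue and miR-324-null tissue, in designs whose same-numbered samples correlated at r from -0.27 to 0.29. At most 3 of 5 pairs were over 0.1, and at most 3 of 5 samples correlated best with their own number, so the numbers were not treated as pairs.

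Leaving out 1 sample at a time gave 63 to 84 tissue calls in WT and 34 to 63 in miR-324-null. Genotype calls in neocortex were 0 to 1 (Kbtbd11-202, without miR-324-null neocortex 5). It also gave 0 to 3 and 0 to 2 genotype shares, 1 to 2 and 0 to 2 tissue shares, 0 to 1 interaction shares and 4 to 8 machinery genes in WT tissue. The 3 libraries with choroid plexus markers were chosen after seeing the data. Without them the values were 72 tissue calls in WT and 28 in miR-324-null, 0 and 1 genotype shares, 1 WT tissue share and 4 machinery genes. The library of highest striatal markers in each neocortical group was chosen likewise. Without it the values were 68 tissue calls in WT, 35 in miR-324-null, 1 genotype share in neocortex, 2 tissue shares in miR-324-null and 1 interaction share. Shares of estimated counts gave 1 and 0 tissue calls, and the logit scale gave 1 genotype share in neocortex, Mettl23-203.

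The summed share was 2.35%, 2.43%, 2.37% and 2.41% (WT and miR-324-null hippocampus, then neocortex) by estimated counts, 2.02%, 2.11%, 2.09% and 2.15% over transcripts with a junction of their own and 3.30%, 3.41%, 3.36% and 3.4% without mitochondrial transcripts. The cause of these changes was not tested. The count filter passed 2421 of the 6822 NMD transcripts in at least 1 comparison, and kallisto's split of shared reads has no error in the deposited tables.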

Other observations

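NMD transcripts with strong annotation support held larger shares of their genes. The median share was 4.98% for the 1635 at support level 1 in genes with a mean count of at least 50, where all splice junctions are backed by a reference messenger RNA, and 1.41% for the 1942 at level 5, where no single transcript backs the model. A share of at least 50% was seen in 5.93% and 1.70% of them. This is a description over transcripts, and it was not tested.

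Several splicing factor genes other than the SR proteins gave much of their TPM to NMD transcripts, here named after their values were seen. Prpf38b-208, of a splicing factor gene, held 49.3% of its gene, Ccnl2-202, of a cyclin that acts in splicing, 48.3%, Ptbp2-206, of the neuronal polypyrimidine tract binding protein, 38.1% and Clk1-210, of a kinase that phosphorylates SR proteins, 32.1%. None of the 31-base words of Ptbp2-206 and Clk1-210 is their own, so their shares rest on the split of shared reads alone. For Ptbp2-206 the share was 42.7% ± 2.37 in WT hippocampus, 34.9% ± 3.85 in miR-324-null hippocampus, 38.6% ± 4.41 in WT neocortex and 36.1% ± 2.34 in miR-324-null neocortex (SD, n = 5). No difference between these groups passed the share test (limma).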
